A study of Mus musculus with 48 samples.

Results

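The CXC chemokine ligands are small secreted proteins that guide leukocytes, and 10 of their genes were examined here: Cxcl1, Cxcl2, Cxcl3, Cxcl5, Cxcl9, Cxcl10, Cxcl12, Cxcl13, Cxcl14 and Cxcl16. They were taken by symbol from a table of 18782 genes, and all 10 were found in it. The table gives reads per gene in the thoracic aorta of C57BL/6J mice, 1 library for each of 48 mice. BAPN, or β-aminopropionitrile, inhibits lysyl oxidase, which links collagen and elastin fibres to each other, and was given to young mice to weaken the aortic wall. MaCon (10 males) and FeCon (10 females) drank plain water. MaNonAD (4 males) and FeNonAD (8 females) had 0.4% BAPN in their water from 3 weeks of age, for 28 days, and showed no lesion under the microscope. MaAAD (7 males) and FeAAD (9 females) had the same BAPN and an aortic dissection or aneurysm. Mice whose aorta had ruptured before the end are in none of the groups, so the AAD groups stand for survivors. The ascending aorta, the arch and the upper descending aorta were excised after perfusion, and the study's methods describe the segments used for RNA as lesioned, so levels in AAD are those of selected segments and not of the whole vessel. How segments were chosen in mice without lesions was not given in the sources used here. The tissue holds every cell type of the wall. A lower amount of a transcript in such bulk tissue can come from fewer cells of a type or from less RNA per cell, and these cannot be told apart.

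CXC ligands are named for a pair of cysteines near the start of the mature protein with 1 other residue between them. Ligands with the residues Glu-Leu-Arg just before these cysteines (the ELR motif) bind Cxcr2 and attract neutrophils. Ligands without it include Cxcl9 and Cxcl10, which interferons induce and which attract Cxcr3-bearing T cells, and the so-called homeostatic ligands, which are made without inflammation. Of these, Cxcl12 holds Cxcr4-bearing cells in tissues, Cxcl13 draws B cells into lymphoid follicles through Cxcr5, and Cxcl14 is made by epithelia and stroma. Cxcl16 is made as a membrane-anchored protein that is shed by proteases and binds Cxcr6. In the aortic wall, smooth muscle cells, fibroblasts, endothelial cells and macrophages can all make CXC ligands.

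The residues that part the classes can be read from the coding sequence, so the stretch around the cysteine pair is shown for each gene, 30 bases from the GENCODE M21 transcripts of GRCm38. Capitals mark the 3 codons just before the first cysteine. They encode Glu-Leu-Arg in 4 of the 10 genes, Cxcl1, Cxcl2, Cxcl3 and Cxcl5, which formed the neutrophil-attracting class.
Cxcl1: gccaatGAGCTGCGCtgtcagtgcctgcag
Cxcl2: gccagtGAACTGCGCtgtcaatgcctgaag
Cxcl3: gccagtGAGCTGCGCtgtcagtgcctgaac
Cxcl5: gcaacgGAGCTGCGTtgtgtttgcttaacc
Cxcl9: ataaggAATGCACGAtgctcctgcatcagc
Cxcl10: gcaaggACGGTCCGCtgcaactgcatccat
Cxcl12: agcctgAGCTACCGAtgcccctgccggttc
Cxcl13: tacacaAACTTAAAAtgtaggtgttctgga
Cxcl14: gtggacGGGTCCAAGtgtaagtgttcccgg
Cxcl16: agtgtcGCTGGAAGTtgttcttgtgatcgt

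These stretches lie in the second coding exon of each gene except Cxcl14, where the stretch spans the junction of exons 1 and 2 (chr13:56296110-56296116 and chr13:56295909-56295931, minus strand). The 4 ELR ligands sit in 1 cluster on the plus strand of chromosome 5 of GRCm38, with Cxcl5 at chr5:90759360-90761624, Cxcl3 at chr5:90786103-90789600, Cxcl1 at chr5:90891241-90893115 and Cxcl2 at chr5:90903871-90905938. The platelet ligand genes Ppbp and Pf4 lie between Cxcl5 and Cxcl3, and Cxcl15 lies between Cxcl3 and Cxcl1. Cxcl9 (chr5:92321347-92328079) and Cxcl10 (chr5:92346638-92348889) lie on the minus strand of the same chromosome, with Art3 between them. The homeostatic ligands are scattered, with Cxcl13 at chr5:95956951-95961068, Cxcl12 at chr6:117168535-117181367 and Cxcl14 at chr13:56288643-56296551. Cxcl16 is at chr11:70453983-70459984.

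The 250 bases before the start sites are shown for Cxcl1, Cxcl2, Cxcl3 and Cxcl10, the ligands that rose in AAD and held an NF-kB match, from RefSeq on GRCm38.p6. Motifs searched on both strands included the NF-kB consensus and the interferon-stimulated response element GAAANNGAAA, which are in capitals, and the TATA box TATAAA. The regions are chr5:90890995-90891244 (plus strand) for Cxcl1, chr5:90903649-90903898 (plus) for Cxcl2, chr5:90785851-90786100 (plus) for Cxcl3 and chr5:92348890-92349139 (minus) for Cxcl10.
Cxcl1: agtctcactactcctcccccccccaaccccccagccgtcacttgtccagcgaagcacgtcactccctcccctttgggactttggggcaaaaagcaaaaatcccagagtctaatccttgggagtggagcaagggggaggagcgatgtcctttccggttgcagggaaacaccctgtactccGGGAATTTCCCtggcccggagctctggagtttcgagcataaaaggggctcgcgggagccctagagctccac
Cxcl2: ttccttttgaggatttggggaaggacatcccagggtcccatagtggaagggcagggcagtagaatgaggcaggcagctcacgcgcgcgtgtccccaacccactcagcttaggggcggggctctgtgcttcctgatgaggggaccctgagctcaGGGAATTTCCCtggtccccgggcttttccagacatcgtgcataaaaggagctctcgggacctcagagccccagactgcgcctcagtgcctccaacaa
Cxcl3: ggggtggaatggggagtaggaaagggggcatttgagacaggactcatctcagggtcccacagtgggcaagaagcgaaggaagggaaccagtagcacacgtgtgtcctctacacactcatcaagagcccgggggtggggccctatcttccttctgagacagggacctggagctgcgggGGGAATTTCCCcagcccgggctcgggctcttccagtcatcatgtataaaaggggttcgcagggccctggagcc
Cxcl10: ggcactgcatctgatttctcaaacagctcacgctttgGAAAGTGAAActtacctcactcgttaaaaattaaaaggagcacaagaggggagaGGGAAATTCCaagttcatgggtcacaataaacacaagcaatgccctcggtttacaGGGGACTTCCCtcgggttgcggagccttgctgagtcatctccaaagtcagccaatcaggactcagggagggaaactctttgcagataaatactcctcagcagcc
In the promoters of Cxcl1, Cxcl2 and Cxcl3 the same 10 letters, GGGAATTTCC, matched NF-kB at -71 to -62, -97 to -88 and -73 to -64 from the start site, each with a match on the other strand 1 base further on. Cxcl10 had an NF-kB match at -159 to -150, overlapping ones from -104 to -94, and the response element at -213 to -204. Of 32851 mouse promoters of this length, 7.25% held the NF-kB consensus and 2.98% the response element. Cxcl12 and Cxcl14 also rose in AAD but held no NF-kB match, and Cxcl14 held a response element at -172 to -163. Neither of these was found in these windows of Cxcl9, Cxcl12 and Cxcl13. TATAAA, held by 12.4% of the promoters, was found in those of Cxcl3 (-30 to -25), Cxcl9 (-195 to -190) and Cxcl13 (-46 to -41). The table held entries for 8 of the 10 genes, without Cxcl5 and Cxcl16. A match is a run of letters and not a measured site.

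Libraries held 13548003 to 17281262 counts (median 15681333), and 14431 genes, all 10 ligands among them, passed the filter on low counts. Levels are given as CPM (a gene's share of its library, scaled to 1e6) with library sizes corrected by TMM factors. The smooth muscle genes that define the wall were abundant throughout, with 9 marker genes summing to 13431 to 69331 CPM per library. Fewer of them were found in AAD (medians 22990 CPM in MaAAD and 23974 in FeAAD, against 46311 in MaCon and 48296 in FeCon). A few libraries stood apart. MaAAD7 and FeAAD5 had the most neutrophil and macrophage marker RNA of their groups, FeNonAD8 the most macrophage and monocyte marker RNA of FeNonAD, and MaCon2 carried thymus and T cell markers (88.9 and 204 CPM). MaAAD7 also had the most heart muscle marker RNA of MaAAD (391 CPM, group median 43.7). FeAAD9, not counted among these 4 libraries, had the most B cell marker RNA of FeAAD (28.8 CPM, group median 6.18). The values without these libraries stand beside the results that rest on them.

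Most CXC ligands were higher in aortas with dissection or aneurysm, in males and females, and few or none in BAPN-treated aortas without lesions. A gene was called when edgeR's adjusted p over all tested genes was under 0.05 and its log2 fold change was at least 1 in size. In MaAAD against MaCon, 8 of the 10 ligands rose, where 9.18% of all tested genes did. In FeAAD against FeCon the count was also 8, against 9.94% of all genes. The ligands that edgeR did not call were Cxcl9 and Cxcl13 in each sex. DESeq2 called 8 in males and 9 in females, adding Cxcl9. Against NonAD, 6 ligands rose in FeAAD, where 6.79% of all genes did: Cxcl1, Cxcl2, Cxcl3, Cxcl5, Cxcl10 and Cxcl16. In MaAAD against the 4 MaNonAD libraries only Cxcl3 was called, where 0.353% of all genes were, while 7 ligands had an unadjusted p under 0.05 (18.7% of all genes) and DESeq2 called 5. NonAD differed from Con in 2 ligands in females, Cxcl13 and Cxcl14 (1.67% of all genes rose). Each call rested on 1 library: the change was 0.47 without FeNonAD6 for Cxcl13 and 0.02 without FeNonAD8 for Cxcl14. Cxcl12 was under the called fold there (0.69, adjusted p = 0.00807 by edgeR). Every FeNonAD library lay above every FeCon library for it, as for 0.367% of all genes. In males NonAD differed from Con in 0 of 10 by edgeR and by DESeq2 (0.381% of all genes rose). In males 4 ligands had an unadjusted p under 0.05, as had 12% of all genes. No ligand was called lower in any of these 6 comparisons. The AAD and NonAD groups of a sex were compared with the same controls, so their comparisons are not independent of each other.

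**Figure D1:**
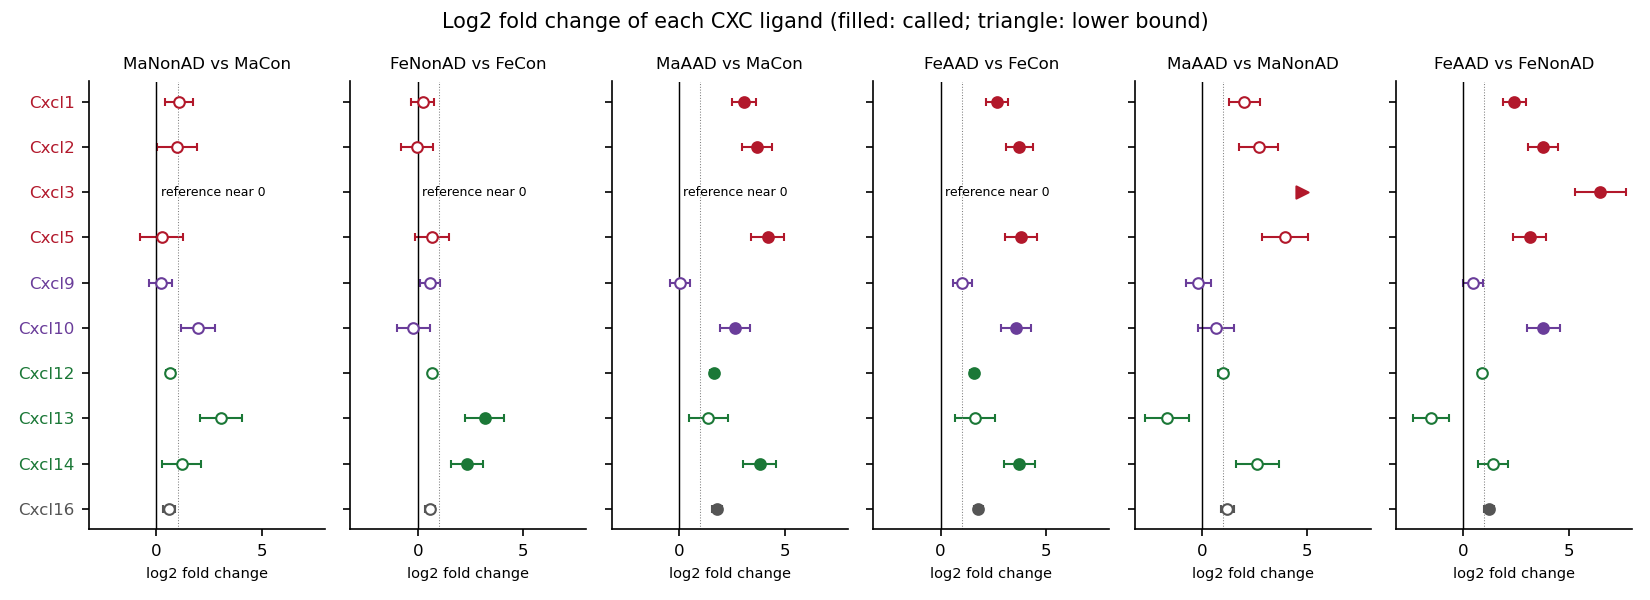
Log2 fold change of each ligand (rows) in the 6 comparisons within a sex (panels), with bars of 1 standard error from edgeR. Filled points were called, the dotted line marks a log2 fold change of 1, and a triangle marks a lower bound against a group at 0. In the panels against Con no point is drawn for Cxcl3, whose reference libraries were near 0. Besides Cxcl3, which was also called, the same 7 ligands are filled in the AAD against Con panels of each sex.

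The median log2 fold change of the 10 ligands was 2.86 in MaAAD and 3.12 in FeAAD against Con, where the median over all tested genes was -0.03 and 0.00. By class, the 4 neutrophil-attracting ligands had the highest medians, 3.94 in MaAAD and 3.78 in FeAAD. The interferon-induced pair stood at 1.33 and 2.30, the 3 homeostatic ligands at 1.65 and 1.63, and Cxcl16 at 1.80 and 1.79. In NonAD against Con the order of the classes was another one: the homeostatic median was 1.19 in males and 2.34 in females, and the neutrophil-attracting median 0.62 and 0.45. The interferon-induced median was 1.08 in males and 0.17 in females. Several of these medians rested on single libraries. Without FeNonAD8 the female homeostatic median in NonAD was 0.56 and the neutrophil-attracting one -0.18, without MaNonAD3 the male homeostatic median was 0.69, and without MaNonAD1 the male interferon-induced median was -0.18. The female interferon-induced median was -0.01 without FeNonAD6. In AAD against Con the neutrophil-attracting median was 2.37 in females without FeAAD5 and 3.03 in males without MaAAD7. The classes hold 1 to 4 genes each, and their medians are descriptions. The neutrophil-attracting medians do not rest on Cxcl3 in AAD, where it was the most changed of the 4. In MaNonAD and MaCon it had at most 1 count in a library, and the male NonAD median of 0.62 includes its uncertain value. The median of the other 3 was 0.99.

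**Figure D2:**
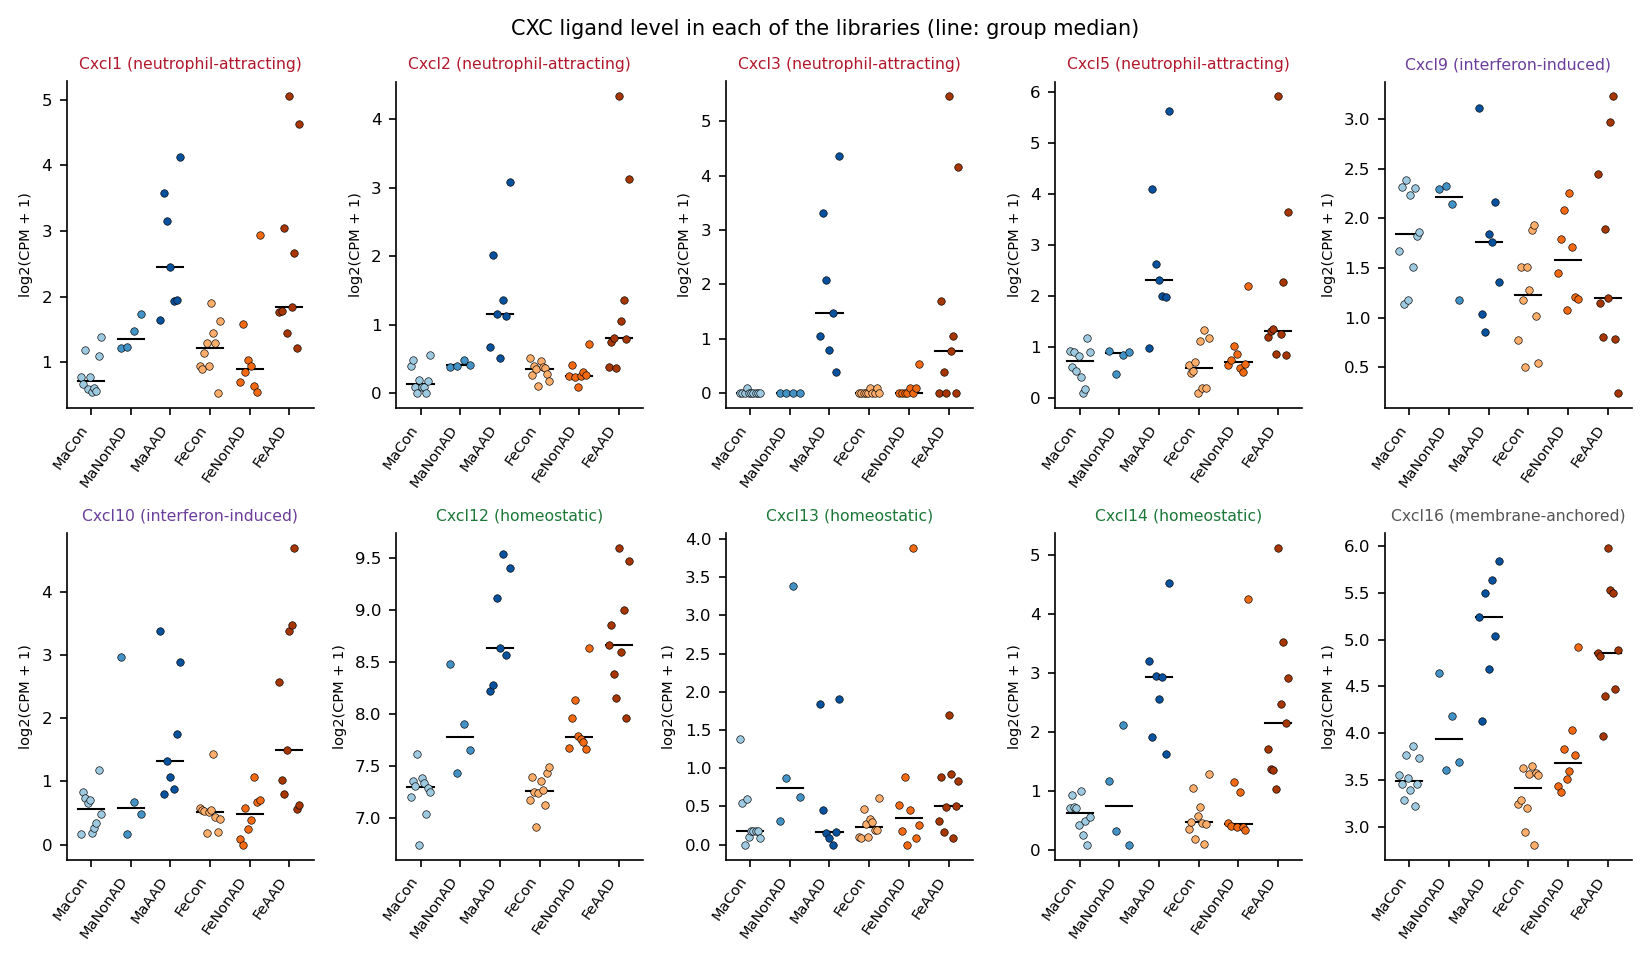
Level of each ligand as log2(CPM + 1) in every library of the 6 groups, with a line at the group median. In MaAAD, Cxcl1, Cxcl3, Cxcl12, Cxcl14 and Cxcl16 lie wholly above MaCon, and single libraries lie far above the rest of their group for Cxcl13 and Cxcl14 in FeNonAD.

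The neutrophil-attracting ligands were scarce in control aortas, and all 4 rose in AAD of both sexes. In BAPN-treated aortas without lesions 0 of the 4 were called in either sex by edgeR or DESeq2, and 0 had an unadjusted p under 0.05 by edgeR, where 12% of all genes in males and 28.9% in females had. In FeAAD against FeNonAD all 4 rose. In MaAAD against MaNonAD edgeR called 1 of the 4, Cxcl3, and DESeq2 called Cxcl1, Cxcl2 and Cxcl5 as well. The rise was uneven between mice, since a few libraries held most of the RNA. Markers of neutrophils, the cells they attract, rose in the same groups: 4 of 6 tested neutrophil markers were higher in MaAAD than in MaCon and 5 of 6 in FeAAD than in FeCon, S100a8 and S100a9 among them. The 9 markers of that list summed to 1.94 to 12.6 CPM in MaCon and 7.74 to 218 in MaAAD. In FeCon they summed to 1.70 to 6.71 CPM, and in FeAAD to 6.31 to 858. Ly6g was at 0 in every FeNonAD library. The part of these cells in the levels of the ligands was not tested.

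Cxcl1, a neutrophil attractant that stromal cells, endothelium and macrophages make, stood at 0.465 to 1.61 CPM in MaCon (median 0.646) and at 2.11 to 16.6 CPM in MaAAD (median 4.49). Every MaAAD library lay above every MaCon library, which held for 5 ligands (Cxcl1, Cxcl3, Cxcl12, Cxcl14 and Cxcl16) and for 6.14% of all tested genes. The rise was 3.08 ± 0.56 on the log2 scale (SE, adjusted p = 2.37e-05, edgeR), and 2.69 without MaAAD7, still called. In females it stood at 0.44 to 2.74 CPM in FeCon (median 1.32) and at 1.33 to 32.2 CPM in FeAAD (median 2.58). The groups overlapped, with 4 of 9 FeAAD libraries above the highest FeCon library and FeAAD5 (32.2) and FeAAD9 (23.7) far above the rest. On the log2 scale the change was 2.66 ± 0.52 (adjusted p = 5.1e-05), and 2.07 without FeAAD5, still called. The 4 MaNonAD libraries had 1.32, 1.34, 1.77 and 2.34 CPM, 2 of them above the highest MaCon library, and the difference from MaCon was not called (1.08 ± 0.68, adjusted p = 0.569). FeNonAD ranged from 0.458 to 6.69 CPM (median 0.86), with FeNonAD8 highest, and did not differ from FeCon by the test (0.24 ± 0.55, adjusted p = 0.81). Without FeNonAD8 the sign turned, to -0.60. Between NonAD and AAD, Cxcl1 rose in females (2.42 ± 0.56, adjusted p = 0.0016). It was 3.25 without FeNonAD8 and 1.83 without FeAAD5, called each time, but was not called in a fit of these 2 groups alone (2.42). In males the change of 2.01 ± 0.74 was not called by edgeR (adjusted p = 0.118), but DESeq2 called it (2.02, adjusted p = 0.0491).

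Cxcl2, a neutrophil attractant made by macrophages and other inflamed cells, was at 0 in 2 MaCon libraries and reached 0.471 CPM in that group (median 0.1). The 7 MaAAD libraries had 0.43 to 7.46 CPM (median 1.22), and 6 of them lay above the highest MaCon library. The rise was 3.68 ± 0.70 (adjusted p = 4.66e-05), and 2.95 without MaAAD7, still called. In FeCon it ranged from 0.0709 to 0.427 CPM (median 0.283) and in FeAAD from 0.294 to 19.2 (median 0.743). Again most but not all AAD libraries were above the controls, 7 of 9, and FeAAD5 alone held 59.4% of the FeAAD sum. The change was 3.74 ± 0.65 (adjusted p = 7.59e-06), and 2.61 without FeAAD5, still called. In MaNonAD the values were 0.299, 0.318, 0.334 and 0.394 CPM, none above the highest MaCon library. FeNonAD ranged from 0.0619 to 0.637 CPM (median 0.191). Neither NonAD group was called against its controls, with changes of 0.99 ± 0.94 in males (adjusted p = 0.752) and -0.05 ± 0.77 in females (adjusted p = 0.973). Every MaAAD library was above every MaNonAD library, as for Cxcl3 and Cxcl5 and for 2.97% of all genes. The change of 2.69 ± 0.91 was not called by edgeR (adjusted p = 0.0896), but DESeq2 called it (2.73, adjusted p = 0.0342). By edgeR it was called, at 2.84, without MaAAD1, and was 1.97 and not called without MaAAD7. In FeAAD against FeNonAD it was 3.79 ± 0.70 (adjusted p = 0.000164), and 2.66 without FeAAD5, still called.

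Cxcl3, the close relative of Cxcl1 and Cxcl2 in the cluster, was almost undetected in aortas without lesions. A single read was counted in MaCon4 (0.0637 CPM) and none in the other 9 MaCon libraries or in any of the 4 MaNonAD libraries. All 7 MaAAD libraries had reads, at 0.31, 0.737, 1.08, 1.80, 3.26, 8.93 and 19.7 CPM, all above both other male groups. Summed over libraries this was 603 counts against 1, a ratio of 783 per unit of library size with an exact 95% interval of 140 to 30988, which covers counting error only (adjusted p = 6.12e-06). Without MaAAD7 it was 265 counts and a ratio of 404. Against MaNonAD, where all libraries were at 0, MaAAD was at least 26.6-fold higher with a floor of 3 counts per library (adjusted p = 0.0497). The bound without MaAAD7 was 14.0-fold. That call was lost when any of MaNonAD2, MaNonAD3, MaNonAD4, MaAAD3, MaAAD5, MaAAD6 or MaAAD7 was left out, while the values stayed apart. Female aortas showed reads in 2 of 10 FeCon libraries, 1 each, and in 3 of 8 FeNonAD libraries, FeNonAD8 highest at 0.446 CPM. FeAAD was split, with FeAAD1, FeAAD4 and FeAAD8 at 0 and the other 6 libraries at 0.309, 0.719, 1.06, 2.26, 16.9 and 43.1 CPM. The 1079 FeAAD counts against 2 in FeCon gave a ratio of 527 (145 to 4354, adjusted p = 1.56e-06), and the 351 left without FeAAD5 a ratio of 193. In FeNonAD 9 counts against 2 gave 5.13 (1.06 to 48.8) and 1.3 without FeNonAD8, and the difference was not called. FeAAD exceeded FeNonAD by a log2 fold change of 6.5 ± 1.19 (adjusted p = 0.000161), 8.11 without FeNonAD8 and 5.08 without FeAAD5, called each time.

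Cxcl5, which epithelial and stromal cells and platelets are known to make, stood at 0.0658 to 1.27 CPM in MaCon (median 0.648) and 0.964 to 48.1 in MaAAD (median 3.93). MaAAD1 was within the range of MaCon, the other 6 MaAAD libraries were above it, and MaAAD7 held 60.0% of the group's sum. The rise was 4.20 ± 0.77 (adjusted p = 2.56e-05), and 3.10 without MaAAD7, still called. FeCon ranged from 0.0709 to 1.52 CPM (median 0.506) and FeAAD from 0.788 to 59.0 (median 1.47). Only 4 of 9 FeAAD libraries lay above the highest FeCon library, and FeAAD5 held 72.4% of the sum. The change was 3.81 ± 0.74 (adjusted p = 4.63e-05), and 2.13 without FeAAD5, still called. The MaNonAD libraries had 0.382, 0.789, 0.868 and 0.898 CPM, all within the MaCon range (0.25 ± 1.01, adjusted p = 0.956). FeNonAD ranged from 0.429 to 3.57 CPM (median 0.627) and was not called against FeCon (0.67 ± 0.79, adjusted p = 0.615; 0.04 without FeNonAD8). All MaAAD libraries were above all MaNonAD libraries. The change of 3.95 ± 1.10 missed the threshold by edgeR (adjusted p = 0.0526), but DESeq2 called it (3.97, adjusted p = 0.00496). By edgeR it passed without MaAAD1 (4.14), MaAAD2 (3.85) or MaAAD4 (4.10). It also passed without the 4 libraries that stood apart (2.85, adjusted p = 0.0247). Without MaAAD7 alone it was 2.85 and not called. FeAAD was higher than FeNonAD (3.15 ± 0.77, adjusted p = 0.00289), but without FeAAD5 the change was 1.46 and no longer called. Without FeNonAD8 it was 3.78 and called.

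Of the interferon-induced ligands, Cxcl10 rose in AAD of both sexes, and Cxcl9, which lies near it on the chromosome, was not called in any comparison by edgeR, though DESeq2 called it in FeAAD against FeCon (1.03), and the difference between these genes was not itself tested. Markers of the T and NK cells that these ligands attract were not called by edgeR, 0 of 7 tested in any of the 6 comparisons, and 0 had an unadjusted p under 0.05. DESeq2, which also tested rarer genes, called Nkg7 in both sexes and Klrb1c in females in AAD against Con. The 11 markers of that list summed to 1.67 to 204 CPM in MaCon and 7.31 to 41.4 in MaAAD. In FeCon they were 1.42 to 24.6 CPM and in FeAAD 2.97 to 19.7.

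Cxcl10, an early product of interferon and NF-kB signals in many cells, stood at 0.128 to 1.27 CPM in MaCon (median 0.489) and 0.744 to 9.40 in MaAAD (median 1.51). In MaAAD, 4 of 7 libraries lay above the highest MaCon library, MaAAD1 and MaAAD7 clearly so. The log2 fold change was 2.64 ± 0.71 (adjusted p = 0.00293). FeCon ranged from 0.138 to 1.71 CPM (median 0.434), and FeAAD from 0.485 to 24.9 (median 1.82). The highest FeAAD libraries were FeAAD7 (24.9), FeAAD6 (10.1), FeAAD5 (9.41) and FeAAD1 (4.95), and 5 of 9 were above FeCon. The change was 3.58 ± 0.70 (adjusted p = 4.51e-05), and 2.87 without FeAAD7, still called. In MaNonAD the values were 0.127, 0.401, 0.591 and 6.83 CPM. The last, MaNonAD1, was the only one above MaCon and held 85.9% of the group's sum. The MaNonAD change of 1.97 ± 0.82 was not called (adjusted p = 0.289) and was -0.43 without MaNonAD1. FeNonAD ranged from 0 to 1.10 CPM (median 0.398), with 0 of 8 libraries above the highest FeCon library and FeNonAD1 (0.062) and FeNonAD2 (0) below the lowest, 0.138 (-0.22 ± 0.79, adjusted p = 0.883). Against NonAD, Cxcl10 rose in FeAAD (3.80 ± 0.77, adjusted p = 0.000383; 3.08 without FeAAD7, still called). In MaAAD the change was 0.67 ± 0.86 (adjusted p = 0.72) and was 3.08 without MaNonAD1, not called either way.

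Cxcl9, which interferon-gamma induces chiefly in macrophages and endothelium, overlapped between all groups of a sex. MaCon ranged from 1.2 to 4.21 CPM (median 2.58) and MaAAD from 0.815 to 7.65 (median 2.40), so that the groups lay over each other. The log2 fold change was 0.02 ± 0.47 (adjusted p = 0.979). FeCon ranged from 0.415 to 2.82 CPM (median 1.35), FeNonAD from 1.11 to 3.78 (median 2.00) and FeAAD from 0.181 to 8.36 (median 1.3). FeAAD held the lowest and the highest female value, FeAAD9 and FeAAD7, and 3 of its 9 libraries were above FeCon. The change in FeAAD against FeCon was 1.02 ± 0.45 (adjusted p = 0.0609). It was called, at 1.12 to 1.18, without any of FeCon7, FeCon8, FeAAD2, FeAAD3, FeAAD5, FeAAD8 or FeAAD9, and was 0.66 and not called without FeAAD7. The MaNonAD libraries had 1.27, 3.42, 3.89 and 4.01 CPM, none above the highest MaCon library (0.19 ± 0.56, adjusted p = 0.941). FeNonAD against FeCon gave 0.57 ± 0.47 (adjusted p = 0.444). From NonAD to AAD the change was -0.17 ± 0.59 in males (adjusted p = 0.906) and 0.46 ± 0.47 in females (adjusted p = 0.525). MaAAD1, the highest male library for Cxcl9, also had the most fat marker RNA of all (6187 CPM over 6 genes), and FeAAD9, the lowest of all for Cxcl9, had the least (303 CPM). But FeAAD7, the highest of all for Cxcl9 (8.36 CPM), did not have the most fat marker RNA of FeAAD, which FeAAD4 had (2353 CPM). The part of fat around the vessel in Cxcl9 was not tested.

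The homeostatic ligands differed in level and pattern. Cxcl12 was the most abundant CXC ligand per kilobase and was higher in every AAD library than in every Con library of its sex, Cxcl14 rose from very low levels, and Cxcl13 was high in single libraries of the NonAD groups. Macrophage, monocyte and dendritic cell markers rose with lesions too, 9 of 10, 4 of 4 and 4 of 5 in AAD against Con of each sex. In FeNonAD against FeCon Ccr2 of the monocyte list and Cd209a of the dendritic list were called (1 of 4 and 1 of 5), and DESeq2 called Itgax of the dendritic list as well. In AAD against Con 2 of 8 fibroblast markers rose (Lum and Col1a1) and 1, Clec3b, fell in females. Of 8 endothelial markers 0 were called by edgeR or DESeq2, and 3 in males and 4 in females had an unadjusted p under 0.05 by edgeR, as had 43.6% and 50.7% of all genes. Their part in the ligand levels was not tested.

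Cxcl12, the stromal ligand of Cxcr4, stood at 106 to 194 CPM in MaCon (mean 153 ± 23.2 SD, n = 10) and at 298 to 745 CPM in MaAAD (mean 480 ± 180 SD, n = 7). In FeCon it stood at 119 to 178 CPM (mean 153 ± 17.4 SD, n = 10) and in FeAAD at 249 to 775 (mean 458 ± 182 SD, n = 9). In each sex every AAD library was above every Con library, as for Cxcl16, which in females held for 3.63% of all genes. The log2 fold change was 1.65 ± 0.19 in males (adjusted p = 7e-09) and 1.58 ± 0.18 in females (adjusted p = 2.13e-09). NonAD lay between. The MaNonAD libraries had 172, 201, 239 and 356 CPM, 3 of them above all MaCon libraries, and the 8 FeNonAD libraries had 202 to 396 CPM (median 218), all of them above all FeCon libraries, which was so for no other ligand and for 0.367% of all genes. The size of this step was under the called fold. FeNonAD exceeded FeCon by 0.69 ± 0.18 (adjusted p = 0.00807), and MaNonAD gave 0.66 ± 0.22 (adjusted p = 0.165). From NonAD to AAD it was 0.89 ± 0.19 in females (adjusted p = 0.000627), again under the called fold but 1.02 and called without FeNonAD8. In males it was 0.99 ± 0.25 (adjusted p = 0.0502), and it was called without MaNonAD1 (1.24), MaAAD1 (1.06), MaAAD2 (1.07) or MaAAD4 (1.03).

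Cxcl14, a ligand of epithelia and stroma with no agreed receptor, stood at 0.0666 to 0.996 CPM in MaCon (median 0.554) and at 2.11 to 22.0 CPM in MaAAD (median 6.65). Each of the 7 MaAAD libraries was above each MaCon library, with a log2 fold change of 3.81 ± 0.77 (adjusted p = 0.000104). Without MaAAD7 this change was 3.27, still called. FeCon ranged from 0.0723 to 1.44 CPM (median 0.385) and FeAAD from 1.06 to 33.7 (median 3.45), with 8 of 9 above the highest FeCon library. The change was 3.74 ± 0.75 (adjusted p = 6.9e-05), and 2.85 without FeAAD5, still called. FeNonAD was called higher than FeCon (2.34 ± 0.76, adjusted p = 0.0308), but the call rested on 1 library. FeNonAD8 had 18.2 CPM, 82.7% of the group's sum, and the other 7 had 0.262 to 1.22 CPM, none above the highest FeCon library. Without it the change was 0.02, and the call was also lost without FeCon1 (2.27) or FeCon4 (2.22). The MaNonAD libraries had 0.0668, 0.255, 1.26 and 3.35 CPM and were not called (1.19 ± 0.94, adjusted p = 0.672; 0.02 without MaNonAD3). From NonAD to AAD the change was 2.62 ± 1.01 in males (adjusted p = 0.139; 3.81 without MaNonAD3) and 1.40 ± 0.70 in females (adjusted p = 0.159). The female change was 3.72 and called without FeNonAD8, and 0.52 without FeAAD5.

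Cxcl13, the follicle ligand for B cells, was at or below 2.74 CPM in all libraries but 2. These were MaNonAD3 (9.46 CPM) and FeNonAD6 (13.8 CPM), BAPN-treated mice without lesions. The other MaNonAD libraries had 0.24, 0.534 and 0.828 CPM, within the MaCon range of 0 to 1.60 (median 0.133). FeNonAD had a median of 0.281 CPM, and FeCon ranged from 0.0663 to 0.525 CPM (median 0.177). FeNonAD was called higher than FeCon (3.18 ± 0.93, adjusted p = 0.0169), but without FeNonAD6 the change was 0.47 and not called. In males the change was 3.05 ± 0.99 (adjusted p = 0.156), 0.70 without MaNonAD3 and 3.85 without MaCon1. B cell markers were called higher in MaNonAD than in MaCon for 4 of 5 tested genes (Cd79a, Cd79b, Ms4a1 and Pax5) and in FeNonAD than in FeCon for 1 of 5 (Cd79b). They were also called for 3 of 5 in MaAAD and 5 of 5 in FeAAD against Con and 3 of 5 in FeAAD against FeNonAD, where Cxcl13 was not. In MaAAD against MaNonAD edgeR called 0 of 5, with an unadjusted p under 0.05 for 2, and DESeq2 1. The markers were not highest in these 2 libraries. They summed to 9.79 CPM in MaNonAD3, in a group of 7.45 to 20.8 (MaCon 0.856 to 5.76), and to 1.71 CPM in FeNonAD6, in a group of 1.31 to 7.80. The part of B cells in Cxcl13 was not tested. In AAD the ligand ranged from 0 to 2.74 CPM in males (1.37 ± 0.93 against MaCon, adjusted p = 0.261; 2.18 without MaCon1 and 0.72 without MaAAD7) and from 0.0624 to 2.25 CPM in females (1.63 ± 0.95 against FeCon, adjusted p = 0.163), called in neither. From NonAD to AAD it was -1.67 ± 1.04 in males (adjusted p = 0.397; 0.71 without MaNonAD3) and -1.55 ± 0.85 in females (adjusted p = 0.203; 1.17 without FeNonAD6). 

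Cxcl16, the shed ligand of Cxcr6 and a scavenger of oxidized lipoprotein on macrophages, was higher in every AAD library than in every Con library of its sex. It stood at 8.35 to 13.6 CPM in MaCon (mean 10.6 ± 1.70 SD, n = 10) and at 16.5 to 56.5 CPM in MaAAD (mean 37.0 ± 13.9 SD, n = 7). FeCon had 6.00 to 11.5 CPM (mean 9.34 ± 2.00 SD, n = 10) and FeAAD 14.7 to 62.2 CPM (mean 32.4 ± 15.2 SD, n = 9). The log2 fold change was 1.80 ± 0.23 in males (adjusted p = 7.13e-08) and 1.79 ± 0.22 in females (adjusted p = 1.53e-08). NonAD was intermediate, with 11.1, 12.0, 17.2 and 24.0 CPM in MaNonAD and 9.32 to 29.2 CPM in FeNonAD (median 11.8). Of these, 2 of 4 and 4 of 8 libraries were above their controls, and neither change was called (0.60 ± 0.28, adjusted p = 0.361, and 0.57 ± 0.23, adjusted p = 0.0843). From NonAD to AAD it rose in females (1.22 ± 0.23, adjusted p = 0.000223). In males the change of 1.2 ± 0.31 narrowly missed the threshold by edgeR (adjusted p = 0.0502), but DESeq2 called it (1.22, adjusted p = 0.0071). By edgeR it was called with DESeq2's size factors (1.21), without robust estimation (1.20) and without the 4 libraries that stood apart (1.08). It was also called without MaNonAD1 (1.46), MaAAD1 (1.19), MaAAD2 (1.33) or MaAAD4 (1.28).

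Single AAD aortas differed in which class was high. The 4 neutrophil-attracting ligands summed to 4.76 to 91.8 CPM in MaAAD (median 9.59) and 2.82 to 153 in FeAAD (median 6.84). The highest were FeAAD5 (153), MaAAD7 (91.8), FeAAD9 (59.8) and MaAAD2 (39.1). The interferon-induced pair was highest elsewhere, in FeAAD7 (33.3 CPM), MaAAD1 (17.1) and FeAAD6 (17.0), where the neutrophil-attracting sum was 11.7, 4.76 and 5.76. FeAAD9 and MaAAD2, among the highest for the first class, had 0.725 and 1.80 CPM of the second, each the lowest of its group. FeAAD5, FeAAD7 and MaAAD7 were above the median of their group in both. Outside AAD, MaNonAD1 had 10.7 CPM of the interferon-induced pair and FeNonAD8 11.3 CPM of the neutrophil-attracting class, each the highest of its group, and 2.52 and 1.91 CPM of the other class, below its median in their groups.

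**Figure D3:**
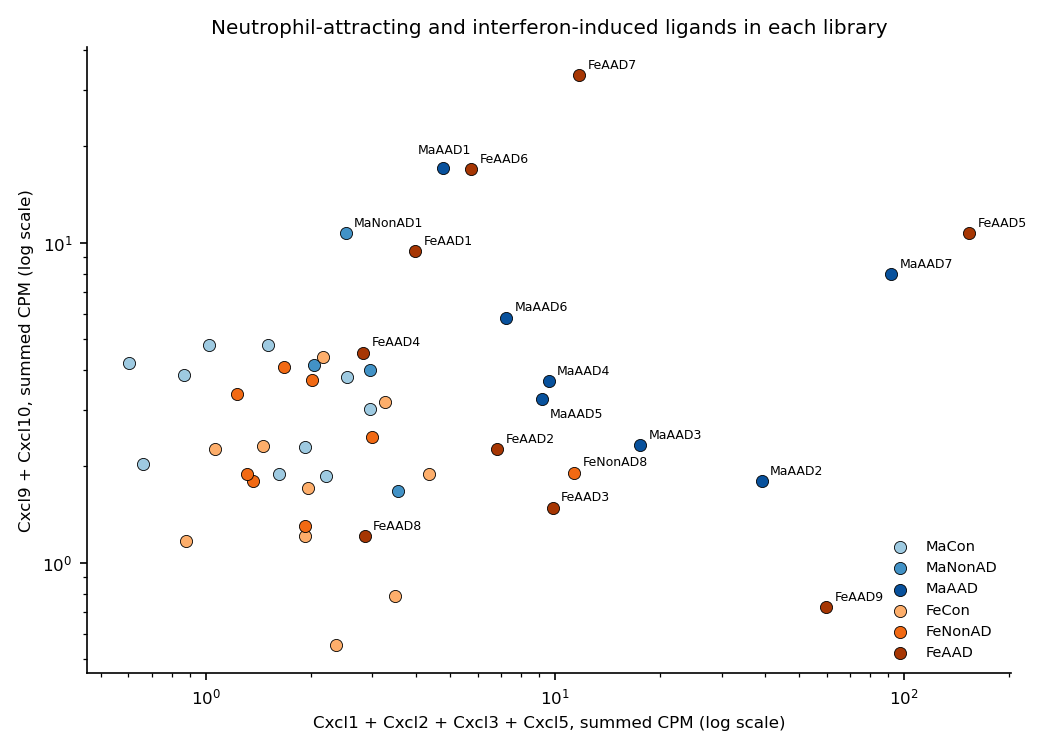
Summed CPM of Cxcl1, Cxcl2, Cxcl3 and Cxcl5 (horizontal, log scale) against summed CPM of Cxcl9 and Cxcl10 (vertical, log scale), 1 point per library, with AAD libraries, MaNonAD1 and FeNonAD8 named. FeAAD9 and MaAAD2 lie to the lower right, FeAAD7, FeAAD6 and MaAAD1 to the upper middle and left, and FeAAD5 and MaAAD7 to the far right.

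Each library was also taken as its deviation from its group mean on the log2(CPM + 1) scale, which leaves out the differences between groups. On this scale Cxcl9, but not Cxcl10, ran against the neutrophil-attracting ligands. Over the 48 libraries, Spearman's rho was 0.54 to 0.80 within the neutrophil-attracting class (6 pairs) and 0.47 between Cxcl9 and Cxcl10. Between these classes (8 pairs) it was -0.41 to -0.21 for Cxcl9 and -0.02 to 0.19 for Cxcl10. In the 16 AAD libraries alone the values within the classes were 0.74 to 0.95 and 0.79. Between them they were -0.41 to -0.37 for Cxcl9 and 0.02 to 0.04 for Cxcl10. The homeostatic ligands correlated with each other at 0.12 to 0.66, the highest being Cxcl12 with Cxcl14. Cxcl16 went with Cxcl12 (0.67), Cxcl14 (0.66) and Cxcl10 (0.59). These values are descriptions, since the points share libraries and their depth, and most members had few reads outside AAD.

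**Figure D4:**
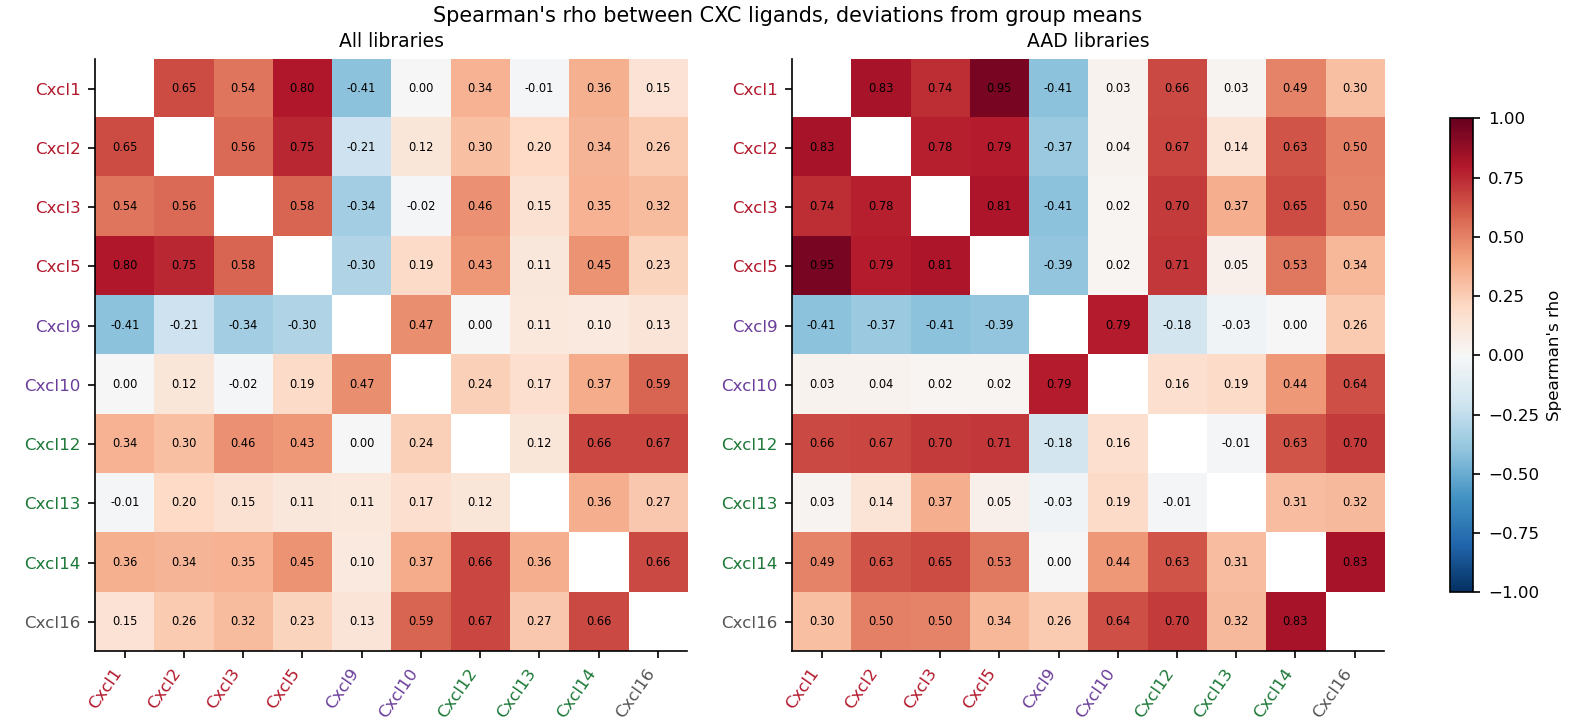
Spearman's rho between each pair of ligands over deviations from group means, in all 48 libraries (left) and in the 16 AAD libraries (right), with red above and blue below 0. The upper left block of 4 neutrophil-attracting ligands and the pair Cxcl9 and Cxcl10 are red, and the fields where they cross are pale or blue.

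Of 13709 genes averaging at least 10 counts per library, the nearest to Cxcl1 by this measure were Cxcl5 (0.80), F10 (0.73) and Zdhhc13 (0.67). Those nearest to Cxcl2 were Gsr (0.77), Cxcl5 (0.75) and Srp19 (0.74), and those nearest to Cxcl3 were Siglecf (0.77), Trem1 (0.76) and Il1r2 (0.74). Cxcl5 had Cxcl1 (0.80), Fpr2 (0.77) and Ccl7 (0.76). Cxcl10 had Isg15 (0.82), Oas1g (0.79) and Oasl1 (0.77), while Cxcl9 had Cyp2j6 (0.78), Ghr (0.77) and Parp10 (0.75). For Cxcl12 they were Psat1 (0.84), E2f1 (0.83) and Lcp1 (0.80), for Cxcl14 Sting1 (0.81), B4galnt1 (0.81) and Fes (0.81), and for Cxcl16 Tmem176b (0.85), Cmtm3 (0.85) and Tyrobp (0.84). Cxcl13 had the weakest, Clec10a (0.62), Ppa1 (0.59) and Timm23 (0.58). Each value is over 48 libraries and is the largest of many.

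Per kilobase of the longest coding transcript, Cxcl12 ranked 1 of the 10 ligands in every group, at 27.2 CPM per kilobase in MaCon, 43.0 in MaNonAD and 85.3 in MaAAD, and 27.3, 43.9 and 81.3 in the female groups. It made up 79.1% of the ligands' sum in MaCon and 66.7% in MaAAD, and 80.0% in FeCon and 63.9% in FeAAD. Cxcl16 ranked 2 in every group, at 3.93 CPM per kilobase in MaCon and 13.7 in MaAAD. Cxcl3 had the lowest mean level of the 10 in Con and NonAD, 0.00627 CPM per kilobase in MaCon, and ranked 5 of 10 in MaAAD (mean 5.04, SD 6.96, median 1.77) and 4 in FeAAD (mean 7.04, SD 14.3, median 0.708), where single libraries carry the mean. Cxcl9 moved the other way, from rank 3 in MaCon (0.952) and 4 in FeCon (0.502) to rank 9 in MaAAD (0.967) and FeAAD (1.02). Cxcl1, at 7.15, and Cxcl5, at 7.27, were alike in MaAAD, with SDs of 5.63 and 10.7. With the median transcript length in place of the longest, Cxcl12 and Cxcl16 kept ranks 1 and 2, and Cxcl3 ranked 7 in MaAAD and FeAAD.

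No ligand was called between the sexes, by edgeR or DESeq2. In MaCon against FeCon 0 of 10 were called, where 1.51% of all genes were, and 1 had an unadjusted p under 0.05 (29.1% of all genes). It was Cxcl9, named here after its values were seen, at 0.92 ± 0.44 (adjusted p = 0.155), with medians of 2.58 CPM in MaCon and 1.35 in FeCon and 4 of 10 MaCon libraries above the highest FeCon library. In the same comparison 3 of 7 T and NK markers and 2 of 4 thymus markers were called by edgeR, and 5 and 3 by DESeq2. Without MaCon2, the highest library for both lists, Cxcl9 was at 0.85 with an unadjusted p of 0.069. That p was also over 0.05 when MaCon4, MaCon6, MaCon8, FeCon1, FeCon3, FeCon4, FeCon6, FeCon9 or FeCon10 was left out alone. Their part was not tested. In MaNonAD against FeNonAD 0 of 10 were called (0.0485% of all genes), and 1 had an unadjusted p under 0.05 (6.47% of all genes), Cxcl10, named after the fact, at 2.22 ± 0.87 (adjusted p = 0.72), and -0.18 without MaNonAD1, which held most of the male RNA. In MaAAD against FeAAD 0 were called (0.0693% of all genes) and 0 had an unadjusted p under 0.05 (2.22%), with log2 fold changes from -0.91 to 0.35. The difference between the sexes in the change from Con to NonAD was called for 0 ligands (0.298% of all genes) and had an unadjusted p under 0.05 for 0 by edgeR (12.1% of all genes) and 1 by DESeq2. For the change from Con to AAD these were 0 called (0.52% of all genes) and 0 with an unadjusted p under 0.05 (15.4%), with differences from -1.0 to 0.43. For the step from NonAD to AAD 0 were called, as were 0% of all genes, and 1 had an unadjusted p under 0.05 (1.04% of all genes). This was Cxcl10, again named after the fact, with -3.13 ± 1.10 for males less females (unadjusted p = 0.00687, adjusted p = 1), and -0.72 without MaNonAD1. A p that misses the threshold does not show that the sexes were alike.

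Other genes of the pathway were looked at from fixed lists. Of the other CXC ligands, Pf4 and Ppbp, which platelets store, rose in AAD. Pf4 rose by 2.30 ± 0.48 in MaAAD (adjusted p = 0.000169) and 2.71 ± 0.47 in FeAAD (adjusted p = 7.42e-06) against Con, and Ppbp, which carries the ELR motif, by 4.08 ± 0.80 (adjusted p = 7.37e-05) and 6.41 ± 0.91 (adjusted p = 2.26e-07). Markers of platelets were called for 1 of 4 genes in MaAAD (0 by DESeq2) and 4 of 4 in FeAAD, with sums of 3.53 to 10.3 and 3.82 to 32.4 CPM against 2.24 to 5.99 in MaCon and 1.94 to 4.56 in FeCon, and their part was not tested. Cxcl15 and Cxcl17 had too few counts to be tested, and Cxcl11 was not analysed here.

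Of the receptors, 4 of 6 tested rose in AAD against Con of each sex. Of all genes 9.18% in males and 9.94% in females did. In FeAAD against FeNonAD 4 of 6 rose too (6.79% of all genes). In the NonAD groups against Con 0 of 6 were called by edgeR or DESeq2. There 2 in males and 0 in females had an unadjusted p under 0.05. In MaAAD against MaNonAD edgeR called 0 of 6 and DESeq2 called Cxcr2, and 1 had an unadjusted p under 0.05. Cxcr2, the receptor of the ELR ligands, rose by 4.48 ± 0.93 in MaAAD (adjusted p = 0.000143) and 4.98 ± 0.94 in FeAAD (adjusted p = 2.85e-05). It stood at 0.0666 to 0.468 CPM in MaCon and 0.359 to 24.7 in MaAAD, and the highest libraries were again MaAAD7 (24.7) and FeAAD5 (32.9). Cxcr3, the receptor of Cxcl9 and Cxcl10, rose by 1.98 ± 0.44 (adjusted p = 0.00034) and 2.11 ± 0.44 (adjusted p = 0.000127). Cxcr4, the receptor of Cxcl12, rose by 1.63 ± 0.39 (adjusted p = 0.000926) and 2.56 ± 0.39 (adjusted p = 8.6e-07). Cxcr6, the receptor of Cxcl16, rose by 2.30 ± 0.43 (adjusted p = 3.51e-05) and 2.00 ± 0.39 (adjusted p = 5e-05). Of the homeostatic ligands only Cxcl12 had a receptor called by edgeR, since Cxcr5 was not tested and Cxcl14 has no agreed receptor. The part of cells that bear these receptors was not tested. The decoy receptors that take up ligands were not called, with Ackr1 at 0.97 ± 0.42 (adjusted p = 0.0649) and 0.50 ± 0.40 (adjusted p = 0.321) and Ackr3 at 0.16 ± 0.17 (adjusted p = 0.491) and 0.02 ± 0.16 (adjusted p = 0.948). Cxcr1 and Cxcr5 had too few counts for the edgeR test, and DESeq2 called Cxcr5, the receptor of Cxcl13, in FeAAD against FeCon.

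Upstream of the neutrophil-attracting ligands, 4 of 12 tested genes of NF-kB signals and feedback rose in MaAAD and 3 of 12 in FeAAD against Con. The cytokine genes led: Il6 rose by 6.25 ± 1.01 (adjusted p = 3.31e-06) and 6.26 ± 0.92 (adjusted p = 4.5e-07), Il1b by 5.41 ± 0.80 (adjusted p = 7.08e-07) and 6.84 ± 0.82 (adjusted p = 7.07e-09), and Tnf by 2.89 ± 0.47 (adjusted p = 3.34e-06) and 2.14 ± 0.42 (adjusted p = 5.13e-05). Il17ra rose in males (1.39 ± 0.27, adjusted p = 6.41e-05) and was under the called fold in females (0.74 ± 0.26, adjusted p = 0.0163). Il6 also rose in FeNonAD against FeCon (3.69 ± 0.97, adjusted p = 0.00791), where DESeq2 called Il1b too and the neutrophil-attracting ligands were not called. Factors of mRNA decay shorten the life of chemokine transcripts. Of 4 such genes 0 were called by edgeR or DESeq2 in any of the 6 comparisons. In FeNonAD against FeCon 4 of the 4 had an unadjusted p under 0.05 by edgeR, where 28.9% of all genes had. In the other comparisons at most 2 did.

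Of the interferon-gamma axis, 2 of 13 tested genes rose in AAD against Con of each sex, a share near that of all genes (9.18% in males and 9.94% in females). They were Irf8, a transcription factor of myeloid cells (2.45 ± 0.30, adjusted p = 3.31e-08, in males and 2.25 ± 0.29, adjusted p = 3.35e-08, in females), and Ciita, which switches on MHC class II (2.27 ± 0.35, adjusted p = 1.16e-06, and 2.84 ± 0.34, adjusted p = 8.95e-09). In FeNonAD against FeCon Ciita was called too, by edgeR and DESeq2 (1.53 ± 0.35, adjusted p = 0.00252). Ifng itself had too few counts to be tested. Of 6 genes that organize lymphoid tissue, in which Cxcl13 is made, 2 rose in MaAAD (Ccl19 by 1.33 ± 0.40, adjusted p = 0.00829, and Tnfsf11 by 3.95 ± 0.87, adjusted p = 0.000332). In FeAAD 3 did (Ccl21a by 1.90 ± 0.77, adjusted p = 0.0414, Ltb by 2.53 ± 0.54, adjusted p = 0.000181, and Tnfsf11 by 3.69 ± 0.86, adjusted p = 0.000466). In the NonAD groups against Con 0 of the 6 were called by edgeR or DESeq2, with an unadjusted p under 0.05 for 0 in males and 2 in females. These were the groups where the highest Cxcl13 levels were found. Of 5 proteases that cut CXC ligands, Mmp2 rose in MaAAD (1.06 ± 0.22, adjusted p = 0.000158) and Mmp9, which trims ELR ligands, in FeAAD (2.16 ± 0.63, adjusted p = 0.00454), though DESeq2 did not call Mmp9.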

How the data were processed

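Strand-specific RNA sequencing libraries were made from thoracic aortas of 48 mice, 1 library per mouse. The authors deposited expected counts per gene, not scaled to library size. Per the labels, the submitters' processing notes name Bowtie2, RSEM 1.3.1 and GRCm39, without saying which step used which. Of the values 4.99% were not whole, and all were rounded (all values of the 10 ligands were whole). The design written at the start spoke of counts.

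Fold changes were tested in edgeR 4.0.16 (R 4.3.3) by the quasi-likelihood test, two-sided, with robust estimation, filterByExpr and TMM, in 1 fit of all 6 groups. Standard errors were worked out from the fold change and its F statistic and are approximate. Values of p were adjusted by Benjamini-Hochberg over 14431 genes. In counts simulated for the 4 AAD comparisons, with genes drawn from all tested genes, 92% to 100% of those changed 4-fold passed adjusted p. Of 49 genes changed 2-fold, 14 (MaAAD against MaCon) to 26 (FeAAD against FeNonAD) were called. Of those changed 1.5-fold 0 were, since that lies under the called fold. These shares do not cover ligands that were scarce outside AAD and uneven between mice. Totals of 13548003 to 17281262 counts limit precision where a gene has few reads. A further promoter motif is not reported here. Floors and count intervals cover counting error only. Groups were taken from the labels. The labels give no batch. Figures used matplotlib 3.10.9 in Python 3.11.15.

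The ligands, their classes and the gene lists were chosen with earlier results of these data known. All 10 ligands are named in comparisons within a sex, and elsewhere if called. Of each list, receptors and ligands are all named, and of the others the most changed of those called. Alternatives were DESeq2 1.42.0, its size factors, calls by adjusted p alone, a fit without the filter or robust estimation, a replicate block, a fit of the compared groups, leaving out each library, and, added after the data were seen, leaving out MaCon2, MaAAD7, FeNonAD8 and FeAAD5 together.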

Additional observations from a re-analysis of the deposited data

Results flagged for a closer look

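In groups of 4 to 10 libraries, 10 of 59 tested sets of values held a library far from the others. Chance alone gives about 5% for independent sets of normally distributed values. These sets share libraries and many hold few counts, so an excess over chance cannot be read from them. FeNonAD8 was the highest of its group for 5 ligands in this way, with Cxcl1 at 6.69 CPM (next 2.00), Cxcl3 at 0.446 (next 0.0655), Cxcl5 at 3.57 (next 1.04), Cxcl14 at 18.2 (next 1.22) and Cxcl16 at 29.2 (next 15.4). This mouse had no lesion under the microscope, and its markers of macrophages (1244 CPM), monocytes (51.5 CPM), dendritic cells (38.2 CPM), neutrophils (7.33 CPM) and fibroblasts (20648 CPM) were each the highest of FeNonAD. Their part in these levels was not tested. FeNonAD6 had 13.8 CPM of Cxcl13, and the next FeNonAD library 0.853. MaCon1 had 1.60 CPM of Cxcl13 and the next MaCon library 0.51. FeCon7 had 1.71 CPM of Cxcl10 and the next FeCon library 0.498. MaNonAD4 had the lowest Cxcl9 of its group, 1.27 CPM, and the next 3.42. MaCon4 was the only MaCon library with a Cxcl3 read, at 0.0637 CPM, which is a single count.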

How the results depend on the processing

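The counts of called ligands moved most for the male comparison of AAD with NonAD. In MaAAD against MaNonAD, where 1 ligand was called, the count was 5 with DESeq2, 2 with DESeq2's size factors, 2 without robust estimation, 3 without the 4 libraries that stood apart, and 0 without a filter on low counts, with the replicate block or with the compared groups alone. Leaving out 1 library gave 0 to 5. It was 0 without any of MaNonAD2, MaNonAD3, MaNonAD4, MaAAD3, MaAAD5, MaAAD6 or MaAAD7, 3 without MaNonAD1, 5 without MaAAD1, and 4 without MaAAD2 or MaAAD4. In FeNonAD against FeCon, where 2 were called, it was 0 with the block, 0 with the compared groups alone, which left 4 ligands to test, and 1 without the 4 libraries, and 1 to 2 when 1 library was left out. In FeAAD against FeCon, where 8 were called, it was 5 with the compared groups alone, where Cxcl2, Cxcl3, Cxcl10 and Cxcl13 were filtered out, 9 with DESeq2, and 8 to 9 when 1 library was left out. In FeAAD against FeNonAD, where 6 were called, leaving out 1 library gave 5 to 8, and the compared groups alone 4 of the 8 they left to test, with Cxcl1 (2.42) lost. In MaAAD against MaCon, where 8 were called, leaving out 1 library gave 8 each time, the compared groups alone 6 of 7 and the block 7. Where a count moved and no filter is named, the cause was not tested.

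Changes of sign were found for small or single-library differences. With the block, Cxcl3 in MaNonAD against MaCon was 1.36, Cxcl2 in FeNonAD against FeCon 0.039 and Cxcl9 in MaAAD against MaCon -0.32. Without the 4 libraries Cxcl1 in FeNonAD against FeCon was -0.60. When 1 library was left out, the log2 fold change in MaNonAD against MaCon ranged from -0.94 to 0.00 for Cxcl3 and from -0.43 to 2.39 for Cxcl10. In FeNonAD against FeCon it ranged from -0.60 to 0.41 for Cxcl1, from -0.39 to 0.0933 for Cxcl2 and from -0.58 to 0.22 for Cxcl10. For Cxcl9 it was -0.46 to 0.23 in MaAAD against MaCon and -0.68 to 0.0077 against MaNonAD, and for Cxcl13 -2.32 to 0.71 in MaAAD against MaNonAD and -2.04 to 1.17 in FeAAD against FeNonAD.

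Mice of different groups share replicate numbers only. The deviations of same-numbered libraries correlated at -0.53 to 0.47, so the numbers were not taken as pairs. With them as a block, Cxcl13 (1.98) and Cxcl14 (1.26) in FeNonAD against FeCon, Cxcl10 in MaAAD against MaCon (1.73) and Cxcl5 in FeAAD against FeNonAD (2.04) were no longer called, nor was Cxcl3 in MaAAD against MaNonAD. Cxcl14 in FeAAD against FeNonAD (2.28) was. Over all genes, the count called in MaAAD against MaNonAD was 51, 518 with DESeq2, 168 with its size factors, 99 without robust estimation and 0 without a filter, with the block or with the compared groups alone. Depth limits the ligands with few reads outside AAD, among them Cxcl2, Cxcl3, Cxcl10, Cxcl13 and Cxcl14.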
